A study of Mus musculus with 5 samples.

Results

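Schwann cells are the glia of peripheral nerves, whose branches also run to the thyroid gland. Of 6 genes of this cell type and its myelin named by symbol (Sox10, Mbp, Prx, Pmp22, Ncmap and Mag), 5 were found among the 16413 genes of the deposited count table, and all 5 passed the filter on low counts. Sox10, the transcription factor of the Schwann lineage, was not analysed here. The libraries came from mice of the genotype LSL-BrafV600E;TgCreERT2, in which an oncogenic Braf allele is switched on by tamoxifen through a Cre driven by thyroglobulin sequences. All animals were labelled as carrying the activated mutation, and none without it entered a comparison. Tamoxifen was injected for 1 week at 8 weeks of age, and the diets ran for 12 weeks, between 10 and 22 weeks of age. The high fat diet group held 3 libraries (replicates 2, 9 and 10) and the chow group held 2 (replicates 2 and 8). The labels do not say that each library is a separate animal, so p-values measure the spread between these libraries, which may be technical.

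As background, a myelinating Schwann cell winds its membrane around a single axon and compacts the turns into an insulating sheath. Sox10 together with Egr2 switches on the myelin genes. Mbp seals the inner faces of the membrane, Pmp22 sits in the compact membrane, and Mag stands at the innermost turn, facing the axon. Prx lies in the outer membrane, where it joins dystroglycan through Drp2. Ncmap is a small protein of the non-compacted myelin membrane. Several of these genes are also transcribed elsewhere. Pmp22 is found in epithelia and fibroblasts, Prx in some capillary endothelium, and the Mbp gene also gives longer Golli transcripts in immune and other cells.

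The members were read per gene, so different transcript starts of a gene fall into a single row. Pmp22 (gene ID 18858, chr11:63128982-63159547 of mm10, plus strand) had 7 transcripts in its row, Ncmap (230822, chr4:135369576-135398227, minus strand) had 6, Mag (17136, chr7:30899176-30914873, minus strand) had 7 and Prx (19153, chr7:27499324-27520214, plus strand) had 2. An annotated gene on the other strand overlaps Prx (Gm15541) and Ncmap (Gm12991), and another overlaps the basic protein gene (Rpl21-ps8). Whether counting used strand is not given in the sources used here, so reads of these pairs cannot be told apart. The 250 bases before the annotated starts are printed for Mag, Prx, Pmp22 and Ncmap from RefSeq (GRCm38.p6, the assembly of mm10), on the strand of the gene, at starts where a RefSeq-linked transcript begins. A pair of starts is shown for Pmp22 and for Ncmap because the counts of each gene pool them. They lie 3587 bases apart in Pmp22 and 12555 bases apart in Ncmap. The windows are chr7:30914864-30915113 for Mag, chr7:27499074-27499323 for Prx, chr11:63128732-63128981 and chr11:63132319-63132568 for Pmp22, and chr4:135398228-135398477 and chr4:135385673-135385922 for Ncmap. Capitals mark matches on either strand to the SOX core ACAAAG or ACAATG, the EGR site GCGNGGGCG or the TEAD core GGAATG.
Mag: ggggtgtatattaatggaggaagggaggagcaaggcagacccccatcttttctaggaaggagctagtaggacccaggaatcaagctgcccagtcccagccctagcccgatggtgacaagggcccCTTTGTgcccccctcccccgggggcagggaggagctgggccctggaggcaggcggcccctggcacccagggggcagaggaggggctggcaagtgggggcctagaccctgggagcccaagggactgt
Prx: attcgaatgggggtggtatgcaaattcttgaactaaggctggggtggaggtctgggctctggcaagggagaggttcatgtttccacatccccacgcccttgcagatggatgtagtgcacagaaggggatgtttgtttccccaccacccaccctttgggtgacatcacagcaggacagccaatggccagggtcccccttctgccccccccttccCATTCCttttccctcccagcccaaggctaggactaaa
Pmp22 upstream start: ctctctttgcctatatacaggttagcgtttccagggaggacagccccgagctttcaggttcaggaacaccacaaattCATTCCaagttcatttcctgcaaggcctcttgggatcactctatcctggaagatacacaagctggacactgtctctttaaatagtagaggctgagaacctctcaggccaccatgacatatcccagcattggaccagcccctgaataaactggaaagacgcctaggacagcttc
Pmp22 downstream start: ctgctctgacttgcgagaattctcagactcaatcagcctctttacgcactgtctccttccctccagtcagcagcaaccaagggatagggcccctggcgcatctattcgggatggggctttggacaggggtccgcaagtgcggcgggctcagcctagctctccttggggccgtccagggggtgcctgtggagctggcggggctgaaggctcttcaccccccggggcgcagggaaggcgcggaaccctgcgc
Ncmap upstream start: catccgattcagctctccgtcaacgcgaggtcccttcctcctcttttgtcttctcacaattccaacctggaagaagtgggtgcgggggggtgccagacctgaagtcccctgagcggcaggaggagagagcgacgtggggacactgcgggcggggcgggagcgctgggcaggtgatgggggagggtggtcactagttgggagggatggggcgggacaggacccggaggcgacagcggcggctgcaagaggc
Ncmap downstream start: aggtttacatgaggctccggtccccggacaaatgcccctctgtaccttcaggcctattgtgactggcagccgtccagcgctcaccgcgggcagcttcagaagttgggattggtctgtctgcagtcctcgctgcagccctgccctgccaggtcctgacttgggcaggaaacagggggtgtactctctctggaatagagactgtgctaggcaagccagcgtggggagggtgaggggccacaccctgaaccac

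The Mag window held 1 match to ACAAAG, and the Prx window and the upstream Pmp22 window held 1 match each to GGAATG. The downstream Pmp22 window and both Ncmap windows held none of the 4 motifs. The matches shown do not overlap each other. Among all 32851 windows of this length, 16.5% held ACAAAG, 10.7% ACAATG, 4.7% GCGNGGGCG and 12.6% GGAATG. These letter matches are descriptions and were not tied to any measurement.

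The libraries held 43494747 to 52663677 counts over the listed genes. All 10 thyroid follicle markers were in the table, and thyroglobulin (Tg) made up 10.9% to 17.1% of a high fat diet library and 18.7% to 22.1% of a chow library. High fat diet replicate 10 stood apart: the airway mucin Muc5b was at 4638 CPM there, against 75.7 to 159 CPM in the other libraries. CPM are counts scaled to the size of the library, with TMM factors that allow for differences in RNA makeup. The quasi-likelihood test of edgeR, adjusted by Benjamini and Hochberg's method over the 15765 genes tested, passed 0 genes at an adjusted p of 0.05 in either direction (0%), and 855 (5.42%) had an unadjusted p under 0.05. DESeq2 called 49 genes higher and 47 lower, and limma-voom called 0.

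Per transcript length, the 5 genes lay on levels that did not overlap in any library. Pmp22 was highest, from 70.2 to 101 FPKM (fragments scaled to transcript length and library size), with Mbp at 10.8 to 13.9 FPKM and Ncmap at 2.57 to 5.05 FPKM. Prx stood at 0.797 to 1.14 FPKM, and Mag was lowest at 0.111 to 0.345 FPKM. Pmp22 therefore took 79.6% to 87.0% of the summed FPKM of the 5 genes in each library, and Mbp took 9.27% to 13.1%. Egr2 and Cdh19 were also read as marks of the cell type, and both were picked after their values were seen. Egr2 had a mean over the 5 libraries of 1.84 FPKM, and Cdh19, a cadherin of Schwann cells, had 0.994 FPKM. In every library Pmp22 and Mbp stood above both. Other genes of Schwann cells that further cell types also carry stood higher, with means of 7.90 FPKM for S100b, 10.7 FPKM for the sodium channel gene Scn7a and 43.4 FPKM for Erbb3. The 9 tested genes of other sheath proteins had a median of 14.3 FPKM and differed widely. Means were 0.956 FPKM for Pllp, 12.3 FPKM for Pmp2 and 14.3 FPKM for Cnp. They were 41.0 FPKM for Gjb1, 47.8 FPKM for Mal and 116 FPKM for Cd9. Which cells made these transcripts was not tested, so the median need not be the level of Schwann cell myelin. In high fat diet replicates 2 and 9 Pmp2 (18.6 and 20.5 FPKM) stood above Mbp, and in the other libraries below it. Which cells made the Pmp22 and Mbp transcripts was not tested. Of 8 oligodendrocyte markers, which would point to central myelin, only Myrf was in the table (0.166 FPKM on average).

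**Figure D1:**
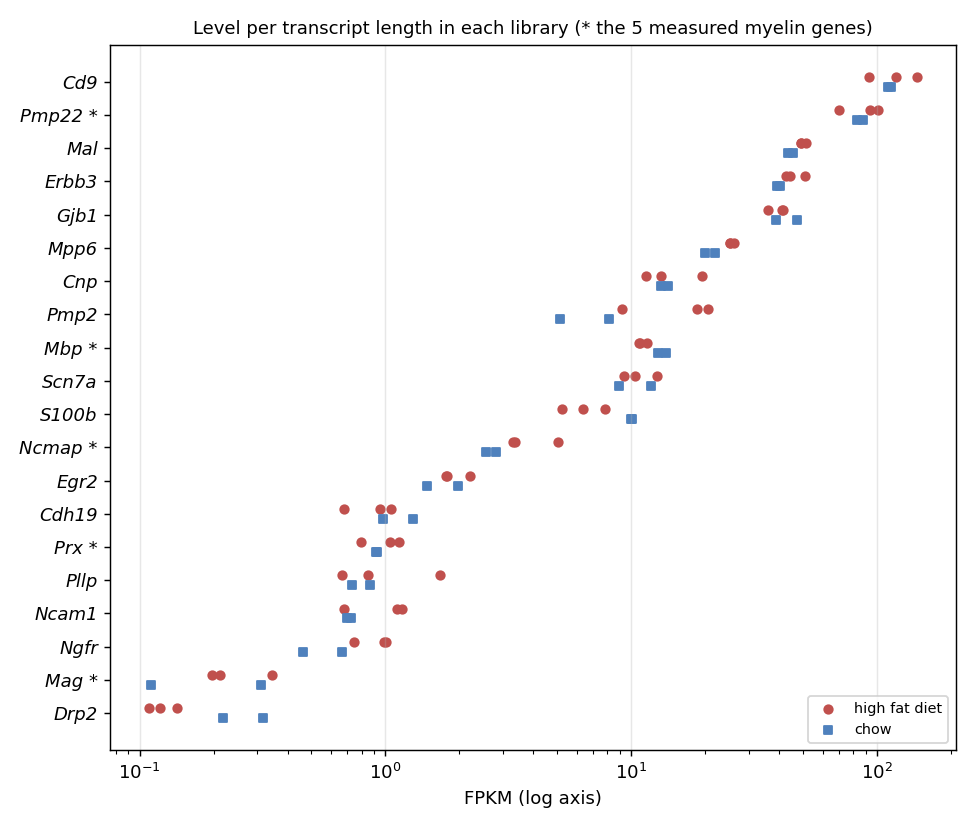
FPKM on a log axis for the 5 measured genes (marked with a star) and other myelin and Schwann cell genes, ordered by mean. Each dot or square is a library. Pmp22 lies at 70.2 to 101 FPKM and Mag at 0.111 to 0.345 FPKM, with Cdh19 beside Prx.

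Between the diets, none of the 5 genes passed the test over all genes, where the background was 0%. Mbp was the only gene of the 5 with an unadjusted p under 0.05, where the background was 2.95% higher and 2.47% lower, and it was lower in every high fat diet library than in both chow libraries. Ncmap was higher in every high fat diet library than in both chow libraries. In Pmp22, Prx and Mag the diets overlapped. So 2 of 5 genes had groups that did not overlap, 1 in each direction, against a background of 10.6% of all genes higher and 10.3% lower in that way. The log2 fold changes (high fat diet minus chow) were above 0 for 2 genes and below 0 for 3 (52.7% of all genes were above 0), with a median of -0.012, beside a median of 0.0123 over all genes tested. In the authors' deposited table the adjusted p-values of the 5 ran from 0.971 for Mbp and Ncmap to 0.990 for Prx. In bulk tissue, fewer cells of a type and less RNA per cell cannot be told apart.

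Mbp (gene ID 17196, chr18:82475146-82585637 of mm10, plus strand), the basic protein of the compact sheath, had 8 RefSeq transcripts in its row, with annotated starts spread over 79434 bases. It was at 52.99, 48.2 and 52.3 CPM in the high fat diet libraries and at 62.6 and 69.2 CPM in the chow libraries. The highest high fat diet library lay below the lowest chow library, and the counting error of each library (95% Poisson intervals within 46.3 to 55.0 CPM on the high fat diet and within 60.2 to 71.8 CPM on chow) did not bridge the gap. A high fat diet mean of 51.2 ± 2.60 CPM (SD, n = 3) stood against a chow mean of 65.9 ± 4.69 CPM (SD, n = 2). This made a log2 fold change of -0.36 (standard error 0.11, 95% interval -0.61 to -0.12). In edgeR its unadjusted p was 0.00846, rank 198 of 15765, and its adjusted p was 0.673. DESeq2 gave an adjusted p of 0.202. With each library left out in turn, the log2 fold change ran from -0.44 to -0.29, and without chow replicate 8 the unadjusted p in edgeR was 0.0909. On the per-length scale the high fat diet mean was 11.1 ± 0.422 FPKM (SD, n = 3) and the chow mean was 13.4 ± 0.694 FPKM (SD, n = 2).

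The summed level of fat cell markers was also lower in the high fat diet libraries. Of 8 adipocyte genes, all in the table and none at 0, 6 had a log2 fold change below 0, with a median of -0.78. The others, Lep and Pparg, had 0.77 and 0.06. Their summed level was 48.8 to 76.3 CPM on the high fat diet and 102 to 123 CPM on chow. Chow replicate 8 was highest in Mbp and in the adipocyte sum, and chow replicate 2 was next in both. Within the high fat diet the orders differed: replicate 9 had the highest adipocyte sum (76.3 CPM) and the lowest Mbp (48.2 CPM). Replicate 10 had the lowest adipocyte sum (48.8 CPM), with Mbp at 52.3 CPM. Tg was likewise highest in chow replicate 8 (235601 CPM) and next in chow replicate 2 (188517 CPM). On the high fat diet Tg was at 102469 to 173593 CPM. Of the 10 thyroid follicle markers, 7 had a log2 fold change below 0 and 3 above. The part of adipocytes or of thyroid follicle cells in the Mbp difference was not tested.

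Ncmap, a membrane protein of non-compacted myelin, was at 6.38, 6.07 and 8.70 CPM in the high fat diet libraries and at 4.89 and 5.50 CPM in the chow libraries. High fat diet replicate 10 was highest, and the other high fat diet libraries lay close above chow replicate 8. The 95% Poisson interval of replicate 10 was 7.91 to 9.56 CPM, while those of replicates 2 and 9 (5.71 to 7.10 and 5.41 to 6.79 CPM) overlapped that of chow replicate 8 (4.81 to 6.27 CPM). The log2 fold change stood at 0.44 (standard error 0.22, 95% interval -0.05 to 0.93). In edgeR the adjusted p was 0.93 (unadjusted p = 0.0732). Without high fat diet replicate 10 the log2 fold change was 0.26.

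Of the gland markers tested, 7 of 8 were highest in high fat diet replicate 10, and Lpo was not. Of 12 mucous and serous gland genes, 8 were tested, and all 8 had a log2 fold change above 0. Muc19, Bpifb2, Smgc and Pip were not analysed here. The summed level of the 8 was 847 to 6388 CPM on the high fat diet and 640.5 to 824 CPM on chow. Muc5b alone gave 4638 CPM of the highest sum. In both Ncmap and this sum the diets did not overlap and high fat diet replicate 10 was highest. The same held for cartilage markers, of which 5 of 8 were tested. Their sum was 146, 144 and 187 CPM in high fat diet replicates 2, 9 and 10. On chow it was 119 and 122 CPM in replicates 2 and 8. The part of gland tissue or of cartilage in the Ncmap difference was not tested.

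**Figure D2:**
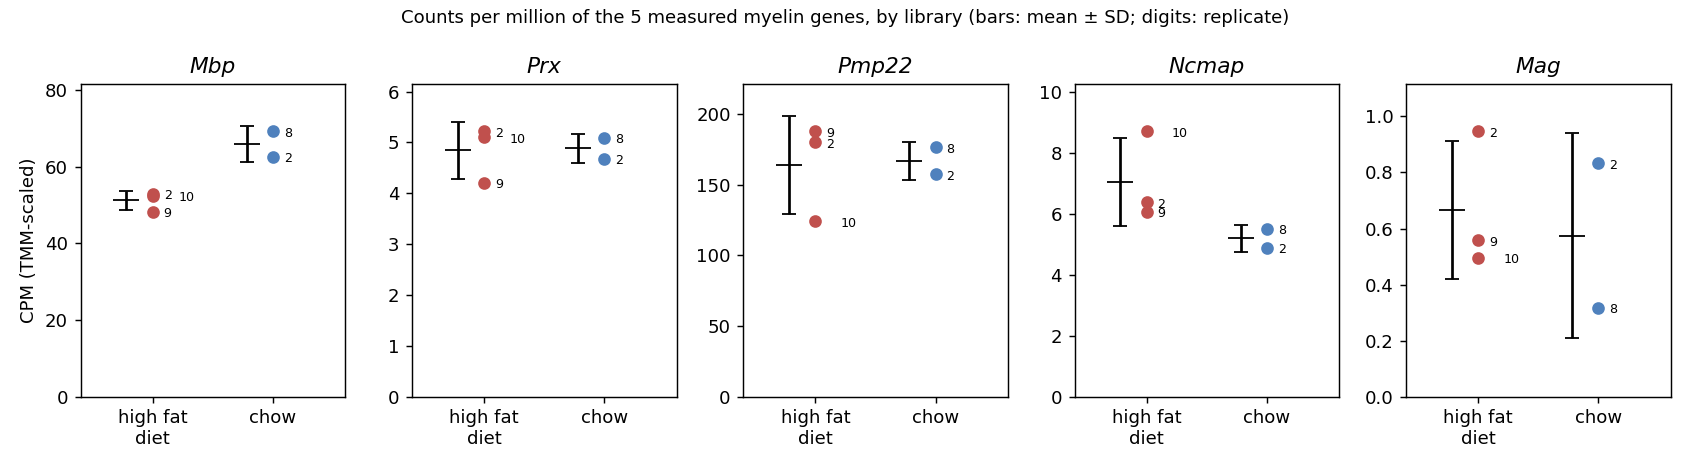
CPM of the 5 measured genes in each library (points, with the replicate number), with the mean ± SD of each diet beside them (3 high fat diet libraries on the left, 2 chow libraries on the right of each panel) and axes from 0. Mbp is lower and Ncmap higher in all high fat diet libraries, and the diets overlap in Prx, Pmp22 and Mag.

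Pmp22, a tetraspan protein of compact myelin whose dosage is known from human hereditary neuropathies, was at 180, 188 and 124 CPM in the high fat diet libraries and at 157 and 177 CPM in the chow libraries. High fat diet replicate 10 was the lowest of all libraries, and the other high fat diet libraries were the highest. The chow libraries lay between them. A high fat diet mean of 164 ± 34.7 CPM (SD, n = 3) stood against a chow mean of 167 ± 13.7 CPM (SD, n = 2), a log2 fold change of -0.03 (95% interval -0.44 to 0.39). The edgeR adjusted p was 0.996. Without high fat diet replicate 10 the log2 fold change was 0.14, so the direction of this value turns on that library. Each library held at least 6278 counts of the gene. The summed level of fibroblast markers was 3838 to 7270 CPM on the high fat diet, highest in replicate 10, and 4619 to 5794 CPM on chow. All 8 of that list were in the table. The collagens Col1a1, Col1a2 and Col3a1 carried most of the sum and were highest in replicate 10, as were Lum and Dpt, while Dcn, Pdgfra and Pi16 were not. The 6 genes of C cells, the neuroendocrine cells of the thyroid, were set beside Pmp22 after their values were seen. Their sum, most of it from Calca, had the same order of libraries as Pmp22. It was 555.5, 655 and 310 CPM in high fat diet replicates 2, 9 and 10. On chow it was 367 and 398 CPM in replicates 2 and 8. The part of fibroblasts or of C cells in the Pmp22 values was not tested.

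Prx, the scaffold of the outer Schwann cell membrane, was the steadiest of the 5. It was at 5.22, 4.20 and 5.10 CPM in the high fat diet libraries and at 4.68 and 5.09 CPM in the chow libraries. Counting error alone bridged these values: the 95% Poisson interval of the lowest library (3.65 to 4.81 CPM) overlapped that of the highest (4.61 to 5.88 CPM). The log2 fold change stood at -0.01 (95% interval -0.47 to 0.45), and the edgeR adjusted p was 0.997. FPKM put the difference on the other side, with a high fat diet mean of 0.994 ± 0.177 FPKM (SD, n = 3) and a chow mean of 0.920 ± 0.00860 FPKM (SD, n = 2), within the spread of the libraries. Of the endothelial markers, 9 of 9 were tested and 8 lay above 0, with a summed level of 499.8 to 607 CPM on the high fat diet and 420 to 521.5 CPM on chow.

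Drp2, the linker between periaxin and dystroglycan, was at 0.889, 0.996 and 0.732 CPM in the high fat diet libraries and at 1.57 and 2.43 CPM in the chow libraries. The diets did not overlap. Its log2 fold change was -1.20 (standard error 0.35), from 37 to 100 counts per library, and its edgeR adjusted p was 0.661. Dag1, which encodes dystroglycan, was at 73.4, 87.7 and 411 CPM in the high fat diet libraries and at 62.6 and 74.6 CPM in the chow libraries. High fat diet replicate 10 was far above the rest. Its log2 fold change of 1.47 (edgeR adjusted p = 0.986) was 0.23 without that library. Of the 8 genes of the periaxin and dystroglycan complex, 4 lay above 0 and 4 below, the median was 0.0252 on the log2 scale, and 0 passed in edgeR.

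Mag, the adhesion protein at the axon, was the sparsest of the 5. It had 49, 28 and 25 counts in the high fat diet libraries and 36 and 13 counts in the chow libraries. These made 0.947, 0.558 and 0.495 CPM on the high fat diet and 0.834 and 0.316 CPM on chow. Replicate 2 of each diet was high and chow replicate 8 was lowest. The 95% Poisson interval of chow replicate 8 (0.169 to 0.541 CPM) lay below those of high fat diet replicate 2 (0.700 to 1.25 CPM) and chow replicate 2 (0.584 to 1.15 CPM), so libraries of the same diet differed by more than counting error. The log2 fold change stood at 0.21 (standard error 0.54, 95% interval -1.02 to 1.44), and the edgeR adjusted p was 0.996. The value was 1.07 without chow replicate 2, -0.32 without chow replicate 8 and -0.13 without high fat diet replicate 2. A diet difference of the size of that in Mbp could not be detected in Mag at this depth and spread.

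Of 10 skeletal muscle markers, 8 were lowest in chow replicate 8, the library where Mag was lowest. The exceptions were Myh4, lowest in high fat diet replicate 10, and Actc1, lowest in high fat diet replicate 2. The summed level, most of it from Ttn, was 4710, 5105 and 2744 CPM in the high fat diet libraries and 6303 and 2325 CPM in the chow libraries, with all 10 genes in the table. Chow replicate 8 was lowest in Mag and in this sum, and high fat diet replicate 10 was next to lowest in both. At the top the orders differed: Mag was highest in high fat diet replicate 2, where this sum lay below chow replicate 2 and high fat diet replicate 9. Chow replicate 8 and high fat diet replicate 10 were also lowest and next to lowest in the endothelial sum (420 and 499.8 CPM). The same held for the sum of 2 parathyroid genes (8.40 and 10.2 CPM). Both of these sums were highest in high fat diet replicate 9. The part of muscle, which nerves cross, or of these other tissues in the Mag values was not tested.

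Across the 5 libraries the genes did not keep a common order. The highest library was chow replicate 8 for Mbp, high fat diet replicate 2 for Prx and Mag, high fat diet replicate 9 for Pmp22 and high fat diet replicate 10 for Ncmap. The lowest was high fat diet replicate 9 for Mbp and Prx, high fat diet replicate 10 for Pmp22, chow replicate 2 for Ncmap and chow replicate 8 for Mag. With 5 libraries no correlation was computed. Instead the log2 CPM of each gene was centred on its own mean, and likeness was measured as the root mean square difference between 2 such profiles. Prx and Mbp were nearest to each other (0.181 on the log2 scale), and Mag was farthest from each of the other genes (0.571 to 0.654). Even so, Mbp and Prx lay on opposite sides of their means in high fat diet replicates 2 and 10 and chow replicate 2. Mbp was at -0.09, -0.11 and 0.15 there, and Prx was at 0.11, 0.08 and -0.05. The spread over libraries was an SD of 0.129 on the log2 scale for Prx, 0.212 for Mbp, 0.241 for Pmp22, 0.312 for Ncmap and 0.619 for Mag. The ratio of Mbp to Prx in FPKM varied least of the 10 pairs, from 10.1 to 15.2, 1.49 times between its extremes. The ratio of Mbp to Mag varied most, 3.97 times between its extremes.

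**Figure D3:**
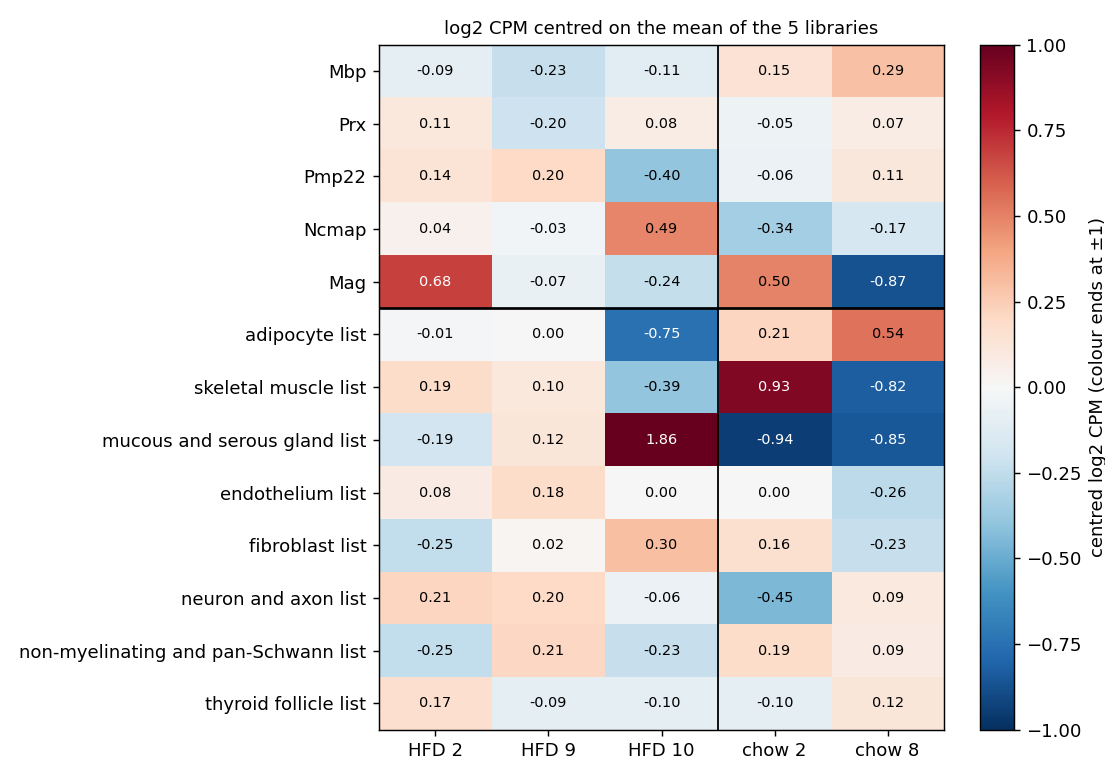
Log2 CPM centred on the mean of the 5 libraries, for the 5 measured genes (above the line) and as the mean over genes for 8 marker lists (below it), with high fat diet libraries left of chow libraries. No library is high or low in all 5 genes: high fat diet replicate 10 is at 0.49 for Ncmap and -0.40 for Pmp22, and the gland list is at 1.86 there.

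The mean of the 5 profiles was nearly flat, from -0.11 in chow replicate 8 to 0.18 in high fat diet replicate 2. Mag, with 13 to 49 counts per library, was at -0.87 and 0.68 in these libraries, farther from 0 than any other of the 5. Nearest to the mean profile by the same measure, among genes with a mean of at least 1 CPM, was Aldoa, a glycolytic enzyme, at 0.016. The ribosomal protein genes Rpl31 and Rpl17 followed at distances of 0.0201 and 0.0212. Mphosph8, Eif3j2, Ptpn21, 1810037I17Rik, Gm16386, Psma4 and Aurkaip1 made up the 10, at distances up to 0.0276. Gm16386 is a predicted gene whose reads may be shared with copies. Of the 5 genes, Prx itself lay at 0.125 from the mean profile, with 22% of genes nearer, and Mag lay at 0.465, with 93.3% nearer. Nearest to Mbp alone were Hinfp, Prmt2 and Homer2 (0.0394 to 0.0413), and nearest to Ncmap were Fut4, AI846148 and Hap1 (0.0222 to 0.0359). Nearest to Pmp22 were Lancl3, Wdpcp and Flrt3 (0.0323 to 0.0373), and nearest to Prx were Tmed3, Ngrn and Sostdc1 (0.0118 to 0.0145). Mag had no close neighbour: Myoc, the gene of secreted myocilin, was nearest at 0.11, followed by Jsrp1 and Asb14 at 0.163 each.

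Beyond these 5, 69 genes of 7 lists on the myelin sheath, its lipids, the Schwann cell and its contact with the axon were examined. Of these, 61 were tested, and some are genes of the axon itself, such as Kcna1. In edgeR 0 passed, 30 lay above 0 and 31 below, and the median log2 fold change was -0.000873. At an unadjusted p under 0.05, 3 were higher and 3 lower (9.84% of the 61, against 5.42% of all genes). Groups did not overlap for 8 higher and 8 lower (26.2%, against 20.8% of all genes). The genes at an unadjusted p under 0.05 were Pmp2, Ugt8a and Adgrg6 on the higher side and S100b, Drp2 and Kcna1 on the lower side.

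Among other sheath proteins, 9 of 12 genes were tested, 5 above 0 and 4 below. Pmp2, a fatty acid binding protein of peripheral myelin, was at 26.3, 28.1 and 12.0 CPM in the high fat diet libraries and at 7.20 and 12.0 CPM in the chow libraries. High fat diet replicate 10 stood level with chow replicate 8, and the other high fat diet libraries lay far above both. Its log2 fold change was 1.21 (standard error 0.46, edgeR adjusted p = 0.908). The gap junction gene Gjb1 had a log2 fold change of -0.21, the scaffold gene Mpp6 had 0.21 and Mal had 0.08. Cldn19, Gjc3 and Fabp7 were not analysed here.

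Of the 7 tested enzymes of myelin lipids, 2 lay above 0 and 5 below. Ugt8a, which makes galactosylceramide, was at 1.28, 1.79 and 1.82 CPM in the high fat diet libraries and at 0.718 and 0.998 CPM in the chow libraries, with no overlap. Its log2 fold change was 0.93 (standard error 0.36), from 31 to 92 counts per library (edgeR adjusted p = 0.856). The desaturases Scd1 and Scd2, shared with all lipid synthesis, had -0.25 and 0.15. Aspa had -0.32, and Fa2h was not analysed here.

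Among the transcription regulators, 6 of 8 tested genes lay above 0 and 2 below, with a median of 0.142. Egr2, the switch for myelination, was at 5.47, 5.30 and 6.29 CPM in the high fat diet libraries and at 6.04 and 4.77 CPM in the chow libraries, a log2 fold change of 0.07 (95% interval -0.38 to 0.53). Its cofactors Nab1 and Nab2 had -0.10 and 0.41, Sox2 had 0.58 and Nfatc4 had 0.30. Pou3f1 and Pou3f2 were not analysed here, and Foxd3 had 2 to 6 counts per library and was removed by the filter. Of the receptors and signals, 6 of 9 lay above 0. Adgrg6, a receptor needed to start myelination, was at 21.7, 27.7 and 24.0 CPM in the high fat diet libraries and at 14.9 and 20.6 CPM in the chow libraries. The diets did not overlap, and the log2 fold change of 0.46 (standard error 0.18, edgeR adjusted p = 0.856) was 0.24 without chow replicate 2. Erbb3, the neuregulin receptor of Schwann cells that epithelia also carry, had 0.12 (0.04 without high fat diet replicate 9 and 0.20 without high fat diet replicate 10), its ligand Nrg1 had -0.37 and Adam22 had 0.25.

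The genes of all Schwann cells or of non-myelinating ones were mixed, with 4 of 11 above 0 and 7 below and a median of -0.15. S100b, a calcium-binding protein that fat cells also express, was at 9.04, 13.003 and 10.1 CPM in the high fat diet libraries and at 17.0 and 18.2 CPM in the chow libraries. The groups did not overlap, and the log2 fold change was -0.72 (standard error 0.18). It had the smallest unadjusted p of the 61 genes (0.00308), and its edgeR adjusted p was 0.534. The adipocyte sums given for Mbp lay lower in the same libraries, and their part here was not tested. Kcna1 was counted in this list although it encodes a potassium channel of myelinated axons. It was at 0.715, 1.81 and 0.989 CPM in the high fat diet libraries and at 2.87 and 2.90 CPM in the chow libraries. Its log2 fold change was -1.30 (standard error 0.40, edgeR adjusted p = 0.704). Cdh19 had -0.42, which was -0.65 without chow replicate 2, -0.24 without high fat diet replicate 10 and -0.17 without chow replicate 8, while Ngfr, which marks immature and non-myelinating Schwann cells, had 0.60 and Ncam1 had 0.38. Gfap was not analysed here. Of the 9 genes at the axon contact and node, 3 lay above 0 and 6 below, with Cntnap1 at -0.46, Cadm3 at -0.23, Cadm4 at 0.29 and Cntn2 at 0.53.

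**Figure D4:**
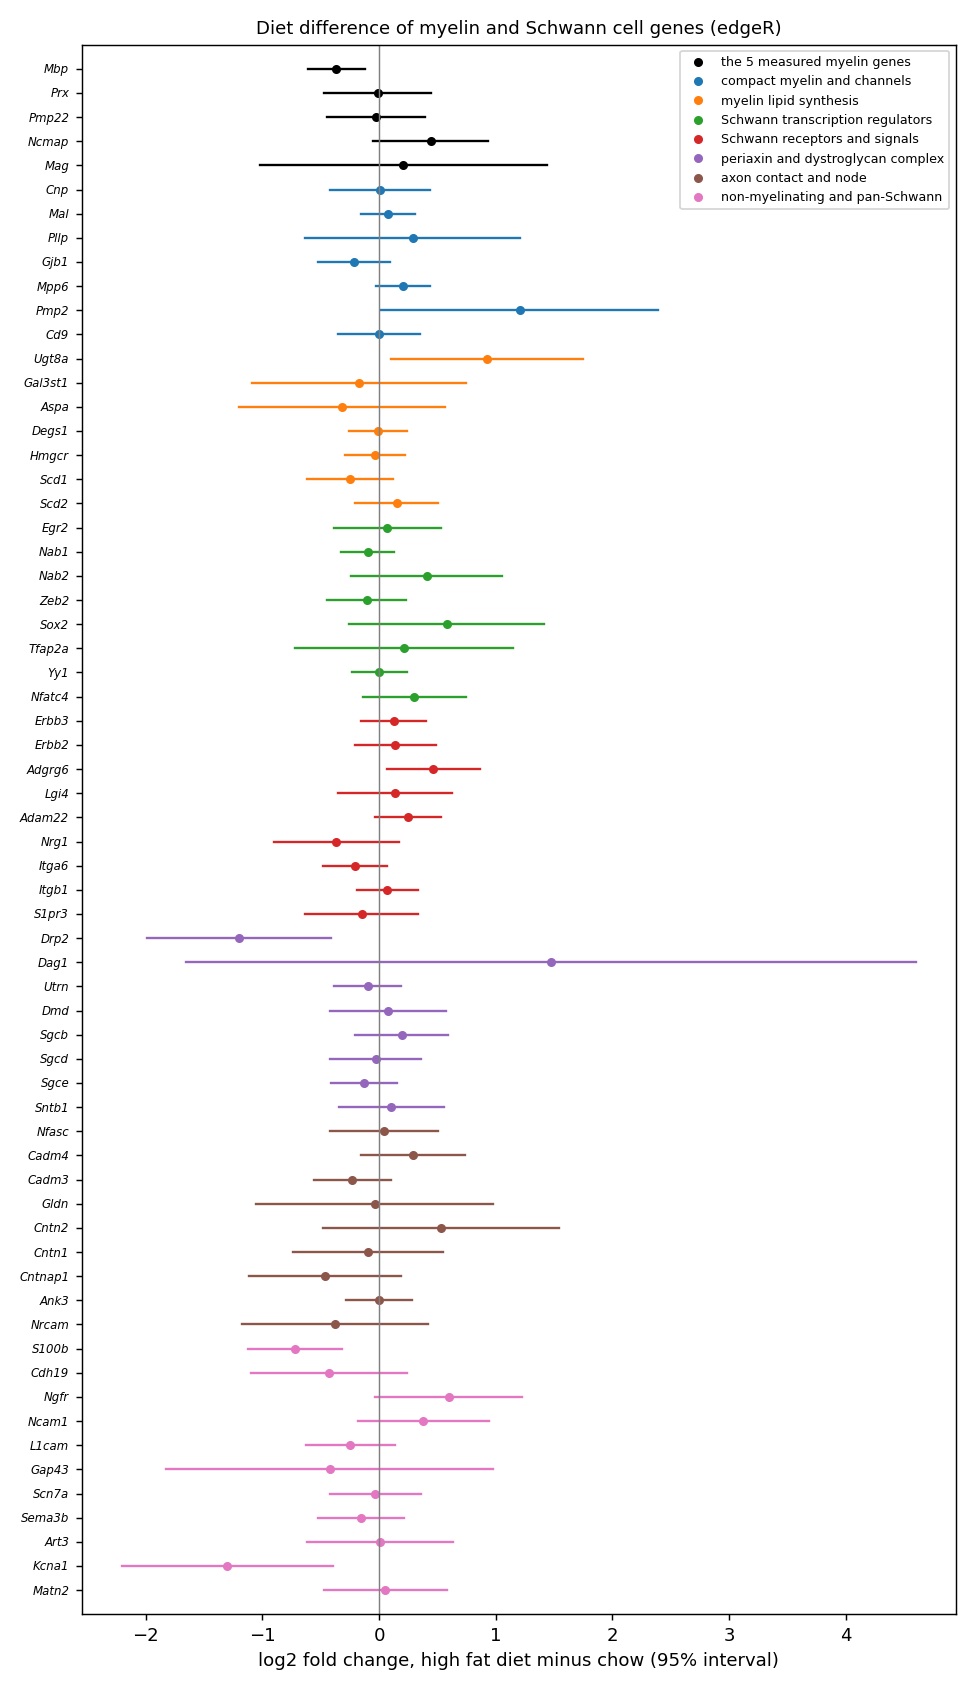
Log2 fold change (high fat diet minus chow) with its 95% interval from the edgeR fit, for the 5 measured genes and further myelin and Schwann cell genes by list. The interval lies wholly below 0 for Mbp, Drp2, S100b and Kcna1 and wholly above 0 for Pmp2, Ugt8a and Adgrg6, and 0 of these genes passed after adjustment.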

How the data were processed

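RNA was total RNA of mouse thyroid glands, made into stranded libraries, per the labels' protocols. Per the submitters' processing notes, HISAT2, StringTie and DESeq2 were among the tools and mm10 was the build, with no role or version given. The authors deposited read counts and FPKM values per gene in 2 sheets with equal values (100% of counts and of FPKM), each listing genes with a count of at least 1 in all 5 libraries. The authors' deposited table also holds normalized log2 values, not used here, p-values of the diet comparison, and a signed fold, a score that runs as chow over high fat diet. Columns spell the high fat diet with another middle letter and were mapped through the treatment and its number. Another 3 columns of library counts match none of these samples and were left out.

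The tests used edgeR 4.0.16 in R 4.3.3 on the counts (TMM, filterByExpr, quasi-likelihood fit with robust shrinkage, diet alone). The filter removed 648 of 16413 genes, and adjusted p-values cover the 15765 tested at a threshold of 0.05. Standard errors and intervals come from that fit. Log2 CPM used a prior count of 0.5. Poisson intervals are exact, at 95%, and cover counting error only. The fits were tested on simulated data. Alternatives were RLE and upper-quartile factors, library size without Tg, no filter, a filter of 1 CPM throughout a group, the tools DESeq2 1.42.0 and limma-voom (limma 3.58.1), shrinkage that is not robust, and leaving out each library. Named genes were the 5 measured members, up to 4 genes per list by p or by level, the genes not analysed, and the nearest genes by profile. Egr2, Cdh19 and any further ones were picked after their values were seen. A few genes of the lists enter the counts but are not reported here by name. The members and lists were chosen with earlier results of these data known.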

Additional observations from a re-analysis of the deposited data

How the results depend on the processing

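None of the 5 genes passed in any alternative run: RLE and upper-quartile factors, library size without Tg, both other filters, DESeq2, limma-voom, shrinkage that is not robust, and each library left out. Mag has no value under the stricter filter, which removes it. Over all genes DESeq2 called 49 higher and 47 lower, against 0 and 0 in edgeR. With a library left out edgeR called 0 to 2 higher and 0 to 3 lower: 1 and 2 without high fat diet replicate 2, 0 and 2 without chow replicate 2, 2 and 3 without chow replicate 8, and 0 otherwise. Mbp stayed below 0 and Ncmap above 0 in all of these, and 2 or 3 genes had groups that did not overlap. The count was 3 only in runs that left out a library, and groups part more easily with fewer libraries. The share over all genes was 20.8% with all 5 libraries and was not computed for those runs. Prx, Pmp22 and Mag changed sign only in fits that left out a library. Prx was at 0.0802 without high fat diet replicate 9 and 0.0529 without chow replicate 8, with a range of -0.0764 to 0.0802. Pmp22 was at 0.139 without high fat diet replicate 10 and 0.0631 without chow replicate 8, with a range of -0.134 to 0.139. Mag was at -0.134 without high fat diet replicate 2 and -0.319 without chow replicate 8, with a range of -0.319 to 1.07. The median of the 5 was 0.139 without high fat diet replicate 10. The cause was not tested. Of the 10 genes nearest to the mean profile, 0 to 5 were kept with a library left out and 10 with RLE factors. A lone chow library is assumed to vary like the others. No paired analysis was possible because the groups share only replicate number 2.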

Other observations

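Of 15 neuron and axon genes, 9 were tested, 7 of them above 0 and 2 below. The median was 0.36 on the log2 scale, and 0 passed in edgeR. Groups did not overlap for 4 of them, all higher on the high fat diet, beside 10.6% of all genes. Of 6 genes of C cells, the neuroendocrine cells of the thyroid, 4 lay above 0 and 2 below, with a median of 0.46 and summed levels of 310 to 655 CPM on the high fat diet and 367 to 398 CPM on chow. Calcb, a calcitonin-related peptide gene, was at 4.08, 3.88 and 4.71 CPM in the high fat diet libraries and at 2.08 and 2.14 CPM in the chow libraries, a log2 fold change of 1.00 (adjusted p = 0.484 in edgeR and 0.017 in DESeq2). The part of C cells in the neuron values was not tested. Uchl1, a ubiquitin hydrolase of neurons and neuroendocrine cells, was at 3.75, 3.23 and 4.15 CPM in the high fat diet libraries and at 1.97 and 2.60 CPM in the chow libraries, a log2 fold change of 0.70 (edgeR adjusted p = 0.856). Stmn2, a tubulin regulator of growing axons, was at 4.97, 3.56 and 5.66 CPM in the high fat diet libraries and at 3.03 and 3.02 CPM in the chow libraries, a log2 fold change of 0.64 (edgeR adjusted p = 0.864). The neurofilament genes Nefl and Nefh were at most at 0.438 and 0.483 CPM in any library. Nefm, Chat, Th, Dbh and Elavl4 were not analysed here.

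Markers of other cell types were also read. Of 7 melanocyte markers, Pmel (0.949 to 1.46 CPM over the 5 libraries) and Mitf (12.8 to 18.3 CPM) were in the table, and Tyr, Tyrp1, Dct, Mlana and Mc1r were not analysed here. All 7 myoepithelial and basal genes were tested, with 3 above 0 and 4 below and a summed level of 83.7 to 94.8 CPM on the high fat diet and 77.8 to 84.7 CPM on chow. The parathyroid gene Casr was at 8.61 to 33.2 CPM on the high fat diet and 7.52 to 24.4 CPM on chow, while Pth and Gcm2 were not analysed here. Perineurium and endoneurium genes had 7 of 9 above 0, with summed levels of 588 to 648 CPM on the high fat diet and 568 to 615 CPM on chow.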
